A study of Mus musculus with 6 samples.

Results

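The genes described here encode the enzymes and transporters of glycolysis and of glycogen synthesis and breakdown, from glucose uptake to lactate export. The 34 genes were taken from the deposited gene table by symbol, using the first row of each identifier, out of 27507 genes in all. Poly(A) RNA was sequenced from L929, a mouse fibroblast line, in 3 control samples whose genotype is given as WT and in 3 samples with the genotype STING KO. STING is the endoplasmic reticulum adaptor that relays the signal of the cytosolic DNA sensor cGAS. No treatment is named for either group, and how the knockout was made, and whether it is 1 clone, is not given in the sources used here. The labels do not say whether replicates are separate cultures, so every p-value reflects the spread among these libraries alone, and this spread may be technical. STING KO was compared with control for each step of the pathway and for each isoform of a step.

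In glycolysis, glucose enters through GLUT transporters and is trapped by hexokinase. Phosphofructokinase commits the sugar to breakdown, and the PFKFB enzymes set its activity through the level of an allosteric activator. Aldolase and triose phosphate isomerase then yield trioses, the lower steps make ATP and pyruvate, lactate dehydrogenase regenerates NAD, and monocarboxylate transporters move lactate across the membrane. Most steps have several isoforms from separate genes, and many of these genes are known targets of the hypoxia-inducible factor HIF and of MYC. Glycogen, the stored form of glucose, is built by glycogenin, glycogen synthase and branching enzyme and is broken down by glycogen phosphorylase.

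Values are normalized counts, which are gene counts that the authors divided by a size factor of each sample, and the samples held 14382072 to 14526606 of them. The targeted gene (Tmem173, the older symbol of Sting1) was at 329, 313 and 311 in control against 82.1, 80.6 and 93.4 in STING KO, so 26.9% of its RNA was left. Of the listed fibroblast markers 8 of 10 were tested and 0 were called, while Dcn and Lum, matrix proteoglycan genes of many fibroblasts, were too low to test. Dcn was at 94.4 in control replicate 3, 32.7 in STING KO replicate 1 and 0 to 4.99 in the other libraries. Lum was at 31.8 in control replicate 3, 11.9 in STING KO replicate 1 and 0 to 0.998 in the others. Hepatocyte markers summed to 5512 in control replicate 3 and 4992 in STING KO replicate 1, against 248 to 665 in the other 4 libraries. Skeletal muscle markers summed to at most 58.2, with Myh1, Myh2, Myh4 and Pvalb at 0 in every library.

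No glycolysis or glycogen gene was called at an adjusted p at or under 0.05, but 12 of the 25 tested glycolysis genes and 2 of the 7 tested glycogen genes lay slightly above control in all 3 STING KO libraries. Of all 32 members tested, 14 had all 3 STING KO values above all 3 control values, while 5.76% of all 12408 tested genes did. In the opposite direction 1 of the 32 members, the lactate transporter gene Slc16a1, was lower in every STING KO library. That is a smaller share than the 6.32% of all tested genes. The members were chosen with earlier results of these data known, so setting their counts beside those of all genes is no test. The 14 were Slc2a1, Hk1, Pfkl, Pfkp, Aldoa, Aldoc, Tpi1, Pgk1, Eno1, Eno2, Pkm and Ldha of glycolysis, and Gys1 and Pygl of glycogen metabolism. Leaving aside Pygl, at 139% of control, and Aldoc, at 129%, the other 12 were at 109.9% to 117% of control. Both ends of that range depend on the choice of genes, by groups without overlap and by setting aside the 2 largest. Over all 32 tested members the STING KO means ran from 84.8% of control (Pfkfb3) to 139% (Pygl). In bulk RNA, a difference in the mix of cells and a difference in RNA per cell cannot be told apart.

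Over the 32 tested members the median log2 fold change was 0.14 and 25 had a positive sign, against a median of -0.0025 and 49.2% positive over all tested genes. limma called 0 members higher (0% of all tested genes) and 0 lower (0.258%), with adjusted p from 0.106 to 0.994. At an unadjusted p at or under 0.05, 14 members were higher and 0 lower, where 3.2% and 3.18% of all tested genes were. limma-voom and the authors' deposited table also called 0 members. Of the 32, 29 had a 95% interval of the change that lay within 1.5-fold in both directions, so for these a change of that size is outside the interval. The other 2 members, Slc2a3 and the gene listed as Pgm2, did not reach 10 normalized counts in 3 samples, and all 32 tested members had at least 10 in all 6.

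**Figure D1:**
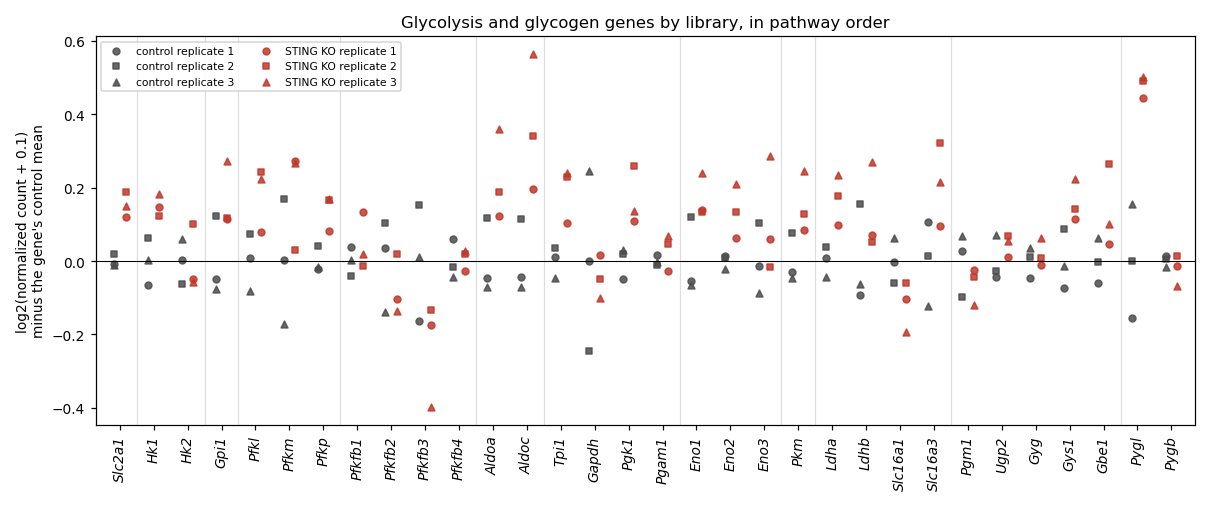
Each point is 1 library; the vertical axis gives log2(normalized count + 0.1) minus the mean of the 3 control libraries for that gene, and the 32 tested genes stand in pathway order with grey lines between steps. Points of STING KO libraries (red) lie above all control points (grey) for 14 genes, most of them by 0.14 to 0.22 on average, and below them for Slc16a1.

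Because many of these genes are known HIF targets, the 250 bases before the RefSeq start site (GRCm38.p6) were searched for ACGTG and GCGTG, the letters of the core of a hypoxia response element, on both strands. The palindrome CACGTG, bound by E-box factors such as MYC and the glucose-responsive MondoA, holds ACGTG on each strand and so counts 2 matches. The upstream sequences of Pygl, Ldha, Pgk1 and Slc16a1 are shown 5′ to 3′ along the gene, with the matches in capitals. Each ends at the base before the start site. Pygl had the largest change of the members, and Ldha and Pgk1 are the lactate dehydrogenase and phosphoglycerate kinase genes. Slc16a1 was the only member lower in every STING KO library, and it was not called. For Pygl and Ldha the first-listed RefSeq start lies inside the gene span that GENCODE gives. The sequences lie at chr12:70227684-70227933 (minus strand), chr7:46845554-46845803 (plus), chrX:106186850-106187099 (plus) and chr3:104638414-104638663 (plus).
Pygl: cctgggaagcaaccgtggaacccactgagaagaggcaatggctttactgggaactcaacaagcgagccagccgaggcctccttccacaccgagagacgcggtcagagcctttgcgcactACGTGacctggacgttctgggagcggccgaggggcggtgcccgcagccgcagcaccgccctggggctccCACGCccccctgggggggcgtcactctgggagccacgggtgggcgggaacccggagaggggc
Ldha: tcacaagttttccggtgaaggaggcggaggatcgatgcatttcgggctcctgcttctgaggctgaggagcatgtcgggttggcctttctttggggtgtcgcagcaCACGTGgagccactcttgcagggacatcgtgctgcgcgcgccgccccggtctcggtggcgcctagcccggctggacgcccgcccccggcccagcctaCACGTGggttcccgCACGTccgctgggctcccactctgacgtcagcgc
Pgk1: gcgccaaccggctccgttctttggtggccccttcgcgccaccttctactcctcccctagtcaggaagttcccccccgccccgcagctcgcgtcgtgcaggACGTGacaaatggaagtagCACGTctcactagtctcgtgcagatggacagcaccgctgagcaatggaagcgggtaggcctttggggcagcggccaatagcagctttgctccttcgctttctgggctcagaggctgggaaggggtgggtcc
Slc16a1: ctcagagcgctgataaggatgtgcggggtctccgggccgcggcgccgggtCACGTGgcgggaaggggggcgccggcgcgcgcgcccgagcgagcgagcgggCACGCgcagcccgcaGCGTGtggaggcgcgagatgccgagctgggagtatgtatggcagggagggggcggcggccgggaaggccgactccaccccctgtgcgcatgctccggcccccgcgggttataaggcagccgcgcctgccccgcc

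The Ldha sequence held CACGTG 145 and 48 bases before the start site and a further ACGTG match 34 bases before it. The Pgk1 sequence held ACGTG 150 and 131 bases before the start, once on each strand. In Pygl there was 1 ACGTG match at 131 bases and 1 GCGTG match at 62 bases before the start, and Slc16a1 held CACGTG at 200 bases and GCGTG at 149 and 134 bases. At least 1 of the 2 motifs was present for 24 of the 33 members with a RefSeq window (72.7%, at the first-listed start of each gene), against 38.6% of 27025 RefSeq genes. Counting any listed start of a gene, they were present for 28 of 33 members, against 41.5% of RefSeq genes. On that count they were present in 11 of the 14 genes that were higher in every STING KO library and in 16 of the other 18 tested members, and at the first-listed start in 8 and 15. The RefSeq genes were not matched to the members for expression or base composition, and both motifs hold CG. The part of base composition in the difference from RefSeq genes was not tested. A match is a description of letters and shows no binding.

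At glucose uptake, Slc2a1, which encodes the widely expressed transporter GLUT1, was at 2644, 2690.4 and 2636 in control against 2889, 3026 and 2946 in STING KO. All 3 STING KO values lay above the control values, and the groups were narrow, with a mean of 2657 ± 29.6 in control against 2954 ± 68.6 in STING KO (SD, n = 3 each) and a log2 fold change of 0.15 (SE 0.045; by limma, adjusted p = 0.596). Slc2a3, the gene of the high-affinity transporter GLUT3 of neurons, was at 0.998 to 4.99 in control and 0.996 to 4.95 in STING KO, too low to test.

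Of the hexokinase genes, Hk1 had groups that were apart and Hk2 had not. Hk1, the constitutive hexokinase, was at 2364, 2584 and 2478 in control against 2737, 2693 and 2807 in STING KO, with no overlap and a log2 fold change of 0.15 (SE 0.051; by limma, adjusted p = 0.732). Hk2, the insulin- and hypoxia-inducible form, was at 1132, 1083 and 1179 in control against 1093, 1214 and 1088 in STING KO. Its groups overlapped, with a log2 fold change of -0.0014 (95% interval -0.14 to 0.14), whose sign turned under TMM and upper-quartile scaling. As a share of both genes per kb of exon, Hk1 was at 60.5 ± 1.78% in control against 62.9 ± 1.87% in STING KO (SD, n = 3), and the shares overlapped (exact two-sided permutation p = 0.2, or 0.45 adjusted over 9 families). Gpi1, glucose phosphate isomerase, was at 10793, 12159 and 10594 in control against 12091, 12096 and 13480.2 in STING KO. Control replicate 2 lay above STING KO replicates 1 and 2 there, so the groups overlapped, while the log2 fold change of 0.17 (SE 0.065; by limma, adjusted p = 0.738) was of the same size as at Hk1.

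Phosphofructokinase RNA came mainly from the liver-type gene Pfkl and the platelet-type gene Pfkp, and both were higher in every STING KO library. Pfkl was at 4630.5, 4842 and 4355 in control against 4864, 5449 and 5373 in STING KO, a log2 fold change of 0.18 (SE 0.06; by limma, adjusted p = 0.728). Pfkp was at 5462, 5699.98 and 5479 in control against 5870.2, 6225 and 6240.02 in STING KO, a log2 fold change of 0.14 (SE 0.046; by limma, adjusted p = 0.728). The muscle-type gene Pfkm, at 129, 145 and 114 in control against 155, 131 and 155 in STING KO, had a similar point value (0.19, 95% interval -0.077 to 0.46) but wide, overlapping groups. As shares of the 3 genes per kb of exon, Pfkl was at 60.4 ± 0.722% in control against 61.0 ± 0.894% in STING KO and Pfkp at 36.2 ± 0.943% in control against 35.5 ± 0.490% in STING KO (SD, n = 3). The shares of Pfkp overlapped (exact permutation p = 0.4). Pfkp had more normalized counts than Pfkl, and the order by share follows from the exon lengths used, 13401 bases for Pfkp and 6675 for Pfkl.

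The genes of the PFKFB regulators, which act on the same step, all had overlapping groups. Pfkfb4 was at 475, 451 and 442 in control against 447, 462 and 465 in STING KO (log2 fold change 0.0069, 95% interval -0.14 to 0.15). Pfkfb1 was at 154, 146 and 150.01 in control against 164, 148 and 152 in STING KO, and Pfkfb2 at 119, 125 and 105 in control against 108, 117 and 105 in STING KO. Pfkfb3, the form with the strongest kinase activity and a known hypoxia and growth factor target, was the least abundant of the 4 per kb of exon. It was at 44.9, 55.9 and 50.7 in control against 44.5, 45.8 and 38.2 in STING KO, with a log2 fold change of -0.24 and an interval of -0.59 to 0.12 that includes changes in both directions. STING KO replicate 3 had the lowest value of Pfkfb3, while it had the highest value of 16 of the 32 tested members.

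Both aldolase genes were higher in every STING KO library. Aldoa (ENSMUSG00000030695, chromosome 7, 126795234 to 126800751, minus strand, GRCm38), the main aldolase of muscle and growing cells, was at 13901, 15553 and 13658 in control against 15617, 16328 and 18393 in STING KO. The highest control value, of replicate 2, lay just under the lowest STING KO value, and STING KO replicate 3 was the highest, with a log2 fold change of 0.22 (SE 0.071; by limma, adjusted p = 0.712). Aldoc (ENSMUSG00000017390, chromosome 11, 78322968 to 78327781, plus strand), the brain-type aldolase, was at 246, 274 and 241 in control against 290.00, 321 and 375 in STING KO. Its log2 fold change of 0.37 (SE 0.10; by limma, adjusted p = 0.566) was the second largest of the members. Per kb of exon Aldoc held 1.55 ± 0.00168% of aldolase RNA in control against 1.71 ± 0.0778% in STING KO (SD, n = 3 each). These shares did not overlap, which gives the smallest exact p that 3 samples against 3 allow, 0.1, or 0.3 when adjusted over the 9 families tested.

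Along the triose steps, Tpi1 and Pgk1 had groups that were apart, while Pgam1 and the low row listed as Gapdh had overlapping groups. Tpi1, triose phosphate isomerase, was at 8553, 8715 and 8229 in control against 9133, 9953 and 10029 in STING KO, a log2 fold change of 0.19 (SE 0.051; by limma, adjusted p = 0.476). Pgk1, phosphoglycerate kinase, was at 2797, 2934 and 2956 in control against 3121, 3461 and 3179 in STING KO, a log2 fold change of 0.17 (SE 0.054; by limma, adjusted p = 0.717). Pgam1, phosphoglycerate mutase, was at 1059, 1039 and 1046 in control against 1029, 1082 and 1099 in STING KO, with a log2 fold change of 0.029 and an interval of -0.09 to 0.15. For Gapdh, which links these reactions by oxidising the triose, the table lists 193, 163 and 228 in control against 195, 186 and 179.7 in STING KO. That is 46.2 normalized counts per kb of exon, against 3306 for Tpi1 and 1370.2 for Pgk1. Whether the Gapdh row reflects the RNA of that gene was not tested, so it is not read as a step without change.

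Several of these single values are uncertain because reads may be shared with near-identical copies. Of the 50-base words of the GENCODE M21 transcripts of Pgk1, 53.9% also occur in transcripts of another gene, mainly Pgk1-rs7. The share was 36.2% for Pgam1, 26.0% for Eno1, 25.8% for Pkm, 25.1% for Gapdh and 20.99% for Ldhb, and 9.26% for Ldha. It was 0% for Aldoc, Eno3, Slc16a1, Slc16a3, Hk2, Pfkfb4, Gyg and Gbe1 and 0.526% for Pygl. How such reads were assigned, and which annotation was used, is not given in the sources used here.

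Of the 3 enolase genes, Eno1, the ubiquitous form, was at 8371, 9442 and 8317 in control against 9565, 9546 and 10259 in STING KO, a log2 fold change of 0.17 (SE 0.059; by limma, adjusted p = 0.738). Control replicate 2 was again the highest control library and lay near STING KO replicates 1 and 2. The copy gene Eno1b, which shares most of these words with Eno1, had a log2 fold change of 0.17, the same as Eno1. Eno2, the neuronal enolase and a hypoxia target, was at 450.3, 449 and 439 in control against 466, 489 and 516 in STING KO, without overlap, with a log2 fold change of 0.14 (SE 0.065; by limma, adjusted p = 0.738). Eno3, the muscle enolase, was at 1384, 1500.3 and 1314 in control against 1458, 1381 and 1704 in STING KO, with overlapping groups and an interval of -0.078 to 0.30. Skeletal muscle markers were near 0, and the share of Eno3 in enolase RNA per kb of exon was 31.95 ± 0.497% in control against 31.1 ± 1.51% in STING KO (SD, n = 3). This share rests on exon lengths of 1739 bases for Eno3 and 5379 for Eno1. In normalized counts the control means were 1399 for Eno3 and 8710 for Eno1.

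Pyruvate kinase and lactate dehydrogenase A had the highest RNA levels per kb of exon of all members, at 5599.5 for Pkm and 5526 for Ldha, followed by 5350.4 for Aldoa. Pkm, whose M1 and M2 splice forms are not separated in a gene table, was at 25966, 27955 and 25648 in control against 28074, 28976 and 31399.9 in STING KO, a log2 fold change of 0.15 (SE 0.055; by limma, adjusted p = 0.738). Ldha (ENSMUSG00000063229, chromosome 7, 46841475 to 46855627, plus strand), which turns pyruvate into lactate, was at 17291, 17654 and 16691 in control against 18414, 19462 and 20234 in STING KO. The lowest STING KO value of Ldha lay above the highest control value, and the log2 fold change of 0.17 (SE 0.048; by limma, adjusted p = 0.566) had an interval of 0.062 to 0.28. Ldhb, the heart-type subunit, was at 798, 948 and 814 in control against 893, 881 and 1024 in STING KO, overlapping, with a log2 fold change of 0.13 (interval -0.061 to 0.32). The share of Ldha in lactate dehydrogenase RNA per kb of exon was 90.5 ± 0.661% in control against 90.8 ± 0.468% in STING KO (SD, n = 3), and the shares overlapped (exact permutation p = 0.6).

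At lactate transport the log2 fold changes of the 2 genes had opposite signs, and neither gene was called. Both intervals (-0.24 to 0.0047 for Slc16a1) include changes in both directions, so opposite changes are not established. Slc16a1 (ENSMUSG00000032902, chromosome 3, 104638668 to 104658462, plus strand), which encodes the widely expressed transporter MCT1, was at 2732, 2627 and 2859 in control against 2549, 2624 and 2392 in STING KO. Every STING KO value lay below every control value, but control replicate 2 and STING KO replicate 2 were nearly level, and the log2 fold change of -0.12 (SE 0.055; by limma, adjusted p = 0.738) was small. Slc16a3, the gene of MCT4, the exporter of strongly glycolytic cells and a HIF target, was at 97.8, 91.8 and 83.4 in control against 97.0, 113 and 105 in STING KO. Its groups overlapped at 1 value each, with a log2 fold change of 0.21 (interval -0.049 to 0.47). Per kb of exon Slc16a3 was 2.70 ± 0.284% of the sum of both genes in control against 3.36 ± 0.254% in STING KO (SD, n = 3 each). The shares did not overlap, at the smallest exact permutation p of 0.1 (0.3 adjusted over the 9 families).

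**Figure D2:**
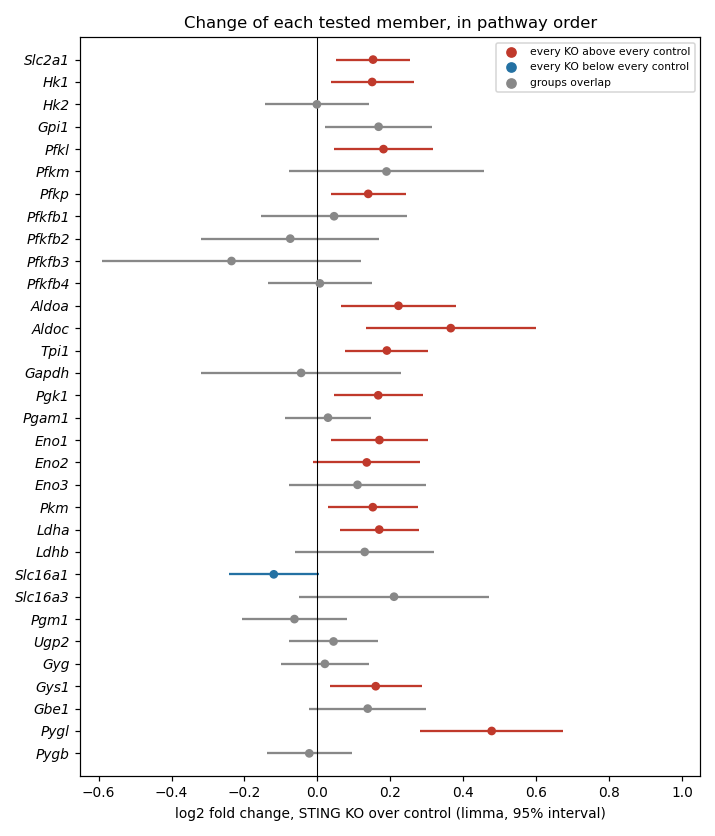
Points give limma's log2 fold change between STING KO and control (positive: higher in STING KO) for the 32 tested genes in pathway order, and lines its 95% interval. The interval of Pygl lies farthest from 0, at 0.28 to 0.67, the other 13 genes that were higher in every STING KO library sit between 0.14 and 0.22, apart from Aldoc at 0.37, and the PFKFB genes, Hk2, Pgam1 and Pygb are centred near or below 0.05.

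In glycogen breakdown, the liver-type phosphorylase gene lay higher in STING KO and the brain-type gene overlapped. Pygl (ENSMUSG00000021069, chromosome 12, 70190811 to 70231488, minus strand), the liver-type glycogen phosphorylase, was at 245, 272 and 303 in control against 370.2, 382 and 386 in STING KO. The means were 273 ± 29.2 in control against 379 ± 8.13 in STING KO (SD, n = 3 each), or 139% of control, and the log2 fold change of 0.48 (SE 0.088; by limma, adjusted p = 0.106) was the largest change and the smallest adjusted p of the members. In the authors' deposited table its adjusted p is 0.0674. After a correction for GC content and length limma called it higher, with a log2 fold change of 0.53 (adjusted p = 0.0249), and over all alternatives its adjusted p ran from 0.00175 to 0.503. Pygb, the brain-type phosphorylase, was at 1121, 1115 and 1099 in control against 1102, 1122 and 1061 in STING KO, with an interval of -0.14 to 0.094.

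The share of Pygl in phosphorylase RNA per kb of exon was 14.6 ± 1.46% in control against 19.5 ± 0.656% in STING KO (SD, n = 3). The shares did not overlap, again at the smallest exact permutation p of 0.1, or 0.3 adjusted over the 9 families. Since Pygl is the phosphorylase of liver, the hepatocyte markers are given beside it, and their part in its change was not tested. All 14 listed had counts in some library, 12 were tested and 0 were called. Their sum was highest in control replicate 3 and STING KO replicate 1, where Pygl was the highest of the control and the lowest of the STING KO libraries. Without these 2 libraries the log2 fold change of Pygl was 0.57 (adjusted p = 0.383, 2 samples a group).

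In glycogen synthesis, Gys1, the muscle-type glycogen synthase expressed in most tissues, was at 2801, 3135 and 2919.7 in control against 3195, 3256 and 3439 in STING KO, with no overlap and a log2 fold change of 0.16 (SE 0.056; by limma, adjusted p = 0.738). Gbe1, the branching enzyme, was at 694, 721 and 756 in control against 747, 869 and 776 in STING KO, overlapping, with an interval of -0.023 to 0.30. Gyg, the glycogenin that primes the chain, was at 999, 1039 and 1056 in control against 1024, 1037 and 1077 in STING KO, and Ugp2, which makes UDP-glucose, was at 1180.1, 1194 and 1277 in control against 1225, 1275 and 1262 in STING KO. Both had overlapping groups and log2 fold changes of 0.021 and 0.044.

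Phosphoglucomutase links glycogen to glycolysis, and its gene names need care. The row listed as Pgm1 (ENSMUSG00000029171, chromosome 5) is named Pgm2 in GENCODE M21, and was at 828, 759 and 851 in control against 798, 788 and 747 in STING KO (log2 fold change -0.063, interval -0.21 to 0.081). The row listed as Pgm2 (ENSMUSG00000025791, chromosome 4) is named Pgm1 there, and is listed at 0 in all 6 libraries.

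**Figure D3:**
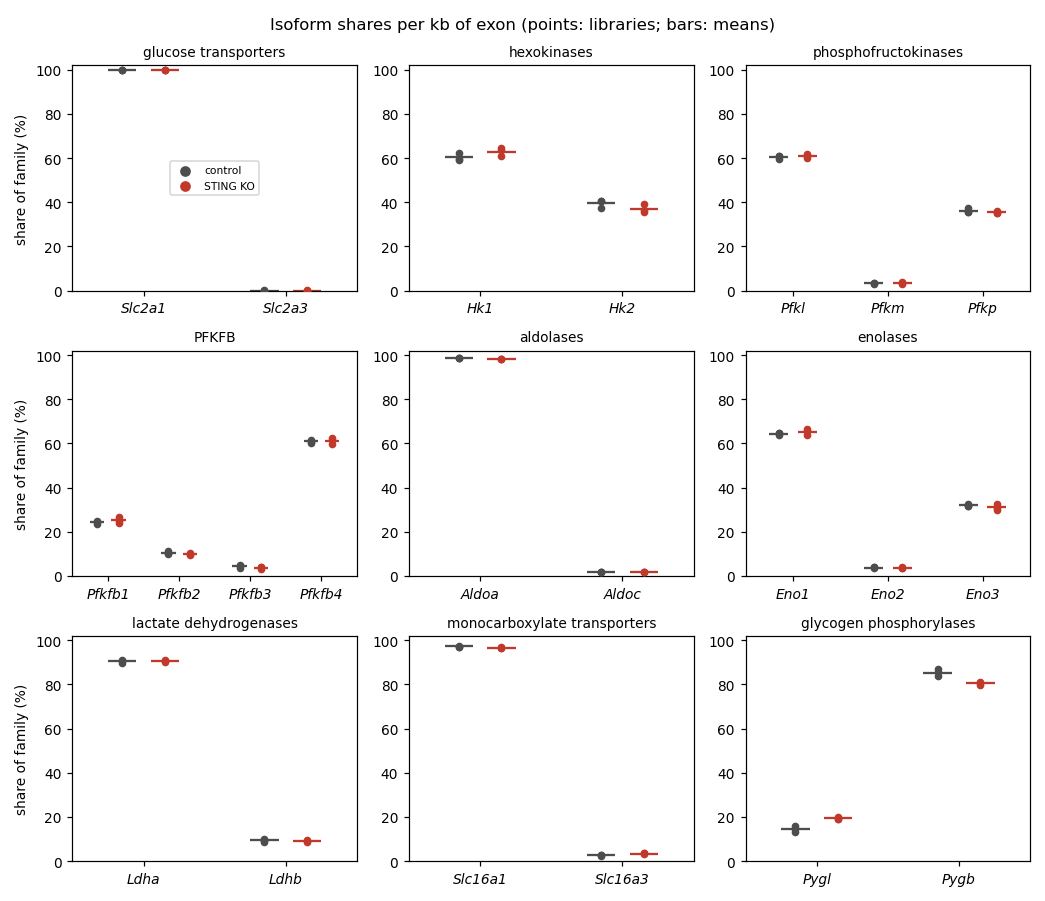
Each panel is a family of isoforms; points are libraries, short lines group means, and the vertical axis is the share of the family's normalized counts per kb of exon. Pygl stands at 14.6% in control and 19.5% in STING KO, and the leading isoform of each other family keeps its place.

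Separation of the groups was more frequent among members with many counts. Of the 13 tested members with a mean of at least 2000 normalized counts, a bound chosen after the values were seen, 11 were higher in every STING KO library, with a median log2 fold change of 0.17. Of the other 19, 3 were (Aldoc, Eno2 and Pygl, of which Pygl and Aldoc had the 2 largest log2 fold changes of all members), with a median of 0.044. Among all tested genes such a level did not go with higher values: 4.70% of 1743 genes at or above that mean and 5.94% of the others were higher in every STING KO library. The members' median GC content was 52.7%, against 49.9% for all tested genes, and their median exon length was 4566 against 4355 bases.

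**Figure D4:**
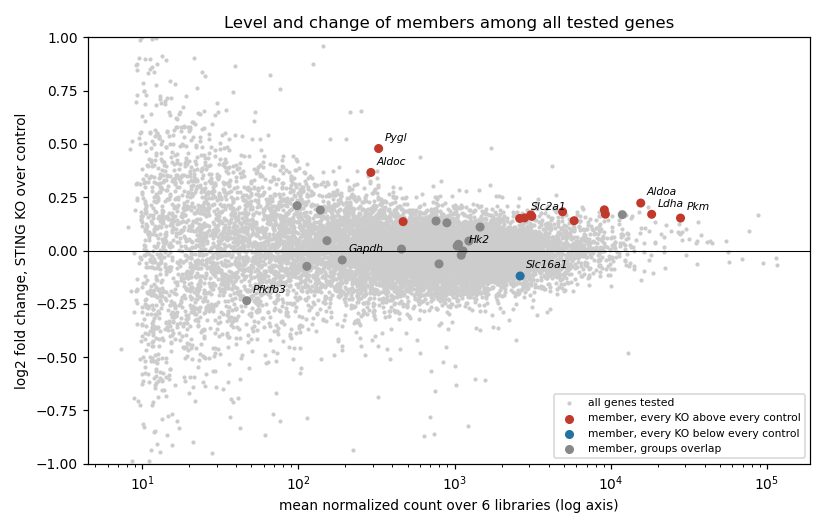
Each point is a gene, with its mean normalized count over the 6 libraries on a log axis and its log2 fold change on the vertical axis, which runs from -1 to 1 and leaves out 25 tested genes. Members that are higher in every STING KO library (red) lie at 0.14 to 0.48, from Aldoc, whose libraries are at 241 to 375 normalized counts, to Pkm at the right.

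Together the 34 genes took 0.830, 0.878 and 0.822% of all normalized counts in the control libraries and 0.900, 0.940 and 0.981% in the STING KO libraries, or 0.843 ± 0.0308% and 0.940 ± 0.0407% (SD, n = 3 each). STING KO replicate 3 had the highest and control replicate 3 the lowest share, and the groups did not overlap. Over the 32 tested members the mean log2 value relative to control was -0.021, 0.034 and -0.013 in control against 0.068, 0.11 and 0.13 in STING KO. The summed fibroblast markers also lay higher in STING KO, at 182818 to 194419.7 in control and 196067 to 208932 in STING KO. Most of this was Vim, the gene of the intermediate filament vimentin: without it the sums overlapped, at 102878 to 107486 and 105459.8 to 109598, and 4 of the other 7 tested markers had a negative sign. Their part in the result was not tested.

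A gradient shared by many genes runs through the libraries of both groups. The first component of the deviations from the group means, over 10238 genes, held 54.1% of their variance. On it control replicate 2 (0.52) and STING KO replicate 3 (0.58) stood apart from control replicates 1 and 3 (-0.063 and -0.46) and STING KO replicates 1 and 2 (-0.30 and -0.28). Of the 32 tested members 17 had their highest control value in control replicate 2, against 40.1% of all tested genes, and 17 their highest STING KO value in STING KO replicate 3, against 39.9%. Control replicates 1 and 3 did not follow the component, since replicate 3 had the lower loading and the slightly higher mean of the members. With this component as a covariate, an alternative chosen after the data were seen, limma called 14 members higher and 1 lower. The background in that fit was 2.36% of all tested genes called higher and 4.29% lower.

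The members called higher in that fit were Slc2a1, Hk1, Gpi1, Pfkl, Pfkp, Aldoa, Aldoc, Tpi1, Pgk1, Eno1, Pkm, Ldha, Gys1 and Pygl, and Slc16a1 was called lower. Aldoa had the smallest adjusted p among them (0.000131) and Slc16a1 the largest (0.0426). Fold changes are the same as without the covariate, because the component is centred within each group. Since the component was estimated from the deviations it then removes, these p-values are too small.

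**Figure D5:**
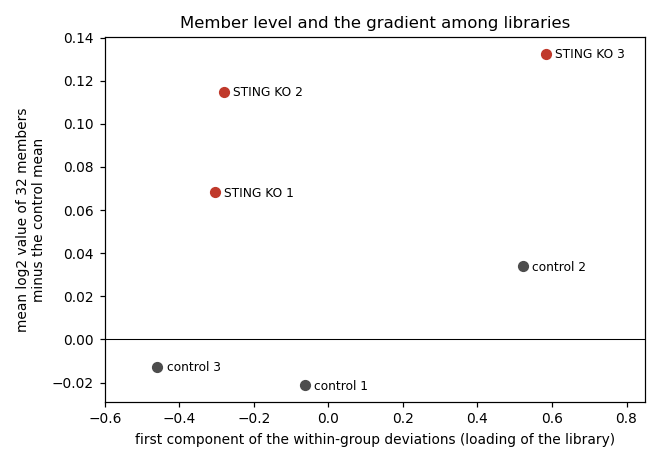
Each point is 1 library, with its loading on the first component of the within-group deviations on the horizontal axis and the mean log2 value of the 32 tested members, relative to the control mean, on the vertical axis. STING KO libraries (red) stand at 0.068 to 0.13 and control libraries (grey) at -0.021 to 0.034, and in each group the library at the right is the highest.

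The neighbouring genes of the pathway, from lists given by name, also had 0 called genes in either direction, where 0% of all tested genes were called higher and 0.258% lower. Counts of genes without overlap between groups read against 5.76% of all tested genes higher and 6.32% lower. Of other glycolysis isoforms and partners 16 of 26 were tested, 2 were higher in every STING KO library (Slc2a4 and Bpgm) and 1 lower (Tigar), with a median log2 fold change of 0.04. Slc2a4, the insulin-responsive transporter GLUT4, was at 107, 121 and 109 in control against 142, 132 and 144 in STING KO, a log2 fold change of 0.31 (SE 0.10; by limma, adjusted p = 0.712). Bsg, basigin, the chaperone that brings MCT1 and MCT4 to the membrane, was at 13433, 15359 and 13691 in control against 15653, 15146 and 17323 in STING KO, overlapping, with a log2 fold change of 0.18.

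Of the other glycogen genes 16 of 25 were tested, with 0 higher and 1 lower in every STING KO library (Phkg2, a phosphorylase kinase subunit, log2 fold change -0.19) and a median of 0.0050. The 2 with the smallest p above a mean of 5 CPM were Epm2a, the glycogen phosphatase laforin, at 81.9, 90.8 and 83.4 in control against 109.9, 109 and 89.4 in STING KO, and Stbd1, a glycogen-binding protein, at 331, 351 and 296 in control against 367, 349 and 386 in STING KO. Both had overlapping groups. All 13 genes of pyruvate entry to mitochondria were tested, and 1 was higher in every STING KO library. This was Pdk1, the pyruvate dehydrogenase kinase that holds pyruvate back from mitochondria and is a HIF target, at 1491, 1490.3 and 1537 in control against 1629, 1882 and 1584 in STING KO, a log2 fold change of 0.17 (SE 0.069; by limma, adjusted p = 0.738). Dlat, a subunit of pyruvate dehydrogenase, was at 2321, 2088 and 2198 in control against 2071, 2132 and 1913 in STING KO, with overlapping groups.

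Of the pathways that branch from glycolysis 14 of 14 genes were tested, with 0 higher and 1 lower in every STING KO library. Their log2 fold changes ran from -0.15 to 0.17, with a median of 0.044. The lower gene was H6pd, which starts the pentose phosphate route inside the endoplasmic reticulum, at 3364, 3288 and 3393 in control against 3070.2, 3178 and 2908 in STING KO, a log2 fold change of -0.13 (SE 0.05; by limma, adjusted p = 0.738). Gpd2, the mitochondrial glycerol phosphate dehydrogenase, was at 1550.5, 1479 and 1568 in control against 1395, 1500.4 and 1262 in STING KO, overlapping. Of 7 gluconeogenesis genes 4 were tested and 0 were free of overlap; Pck2 and G6pc3 had the smallest p, with log2 fold changes of 0.069 and 0.12. Among the HIF genes themselves 7 of 8 were tested, 4 had a positive sign, and the median log2 fold change was 0.043. Hif1a, the inducible subunit, had a log2 fold change of -0.17, its partner gene Arnt -0.11 and Hif1an, an asparaginyl hydroxylase of HIF, -0.074, all with overlapping groups and named after their values were seen. Egln1, a prolyl hydroxylase that marks HIF for destruction and is itself a HIF target, was higher in every STING KO library, at 2769, 2894 and 2761 in control against 2984, 3226 and 3246 in STING KO, a log2 fold change of 0.17 (SE 0.052; by limma, adjusted p = 0.675). Egln3, another such hydroxylase, was at 502, 479 and 497 in control against 501, 594 and 577 in STING KO, with overlapping groups.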

How the data were processed

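The deposited table holds, per gene, a normalized count signal for each of 6 samples, which the authors made by dividing counts by a size factor (read from the values: 100% of values above 0 are whole multiples, within 0.01, of 1 step per column). Per the file headers it also holds the authors' log2 fold change, Wald score, p-value and adjusted p-value. Tools named in the submitters' processing notes, without roles, are RSEM 1.2.12, DESeq2 1.4.5, Bowtie2 2.2.5 and HISAT2 2.0.4, and builds are GRCm38 and mm10. The step is so close to 1 that reads were not recovered, and the 2 planned tests on reads (edgeR and DESeq2) were not run. A model with group alone was fitted with limma 3.58.1 (R 4.3.3, trended prior variance) to log2(normalized count + 0.1) for the 12408 genes with at least 10 in at least 3 samples, and p-values were adjusted by Benjamini-Hochberg over all of them; fold changes are on this scale, which understates those of low genes. The fit was tested on simulated data with independently drawn libraries. Of 50 genes changed 1.15-fold it called 8%, and of 50 changed 1.5-fold 92%, while 8 of 157 calls were unchanged genes. The simulation also changed 50 genes 2-fold and 50 genes 4-fold, and changed only genes above a set level. The fit of the data called fewer genes, 32, which makes its cutoff stricter, so these percentages may be too high for the data. Changes of the size seen for most members would thus mostly go uncalled. Isoform shares used the merged length of all annotated exons of a gene in GENCODE M21 (27480 of 27507 identifiers matched) and exact permutation tests in SciPy 1.17.1. This length can exceed that of the transcripts present, so shares between isoforms of unequal exon length are rough. Promoter windows came from RefSeq and matched 33 of 34 members. The 34 members and, of each other list, called genes and the 2 with the smallest p at a mean of at least 5 CPM are named, beside genes without overlap between groups, named after their values were seen. Members and lists were chosen with earlier results of these data known.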

Additional observations from a re-analysis of the deposited data

How the results depend on the processing

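Of 543 member values under 17 alternatives, 527 stayed on their side of the threshold, 16 newly passed it (15 with the first residual component as a covariate, chosen after seeing the data, and Pygl after the GC and length correction) and 0 called values turned. The 14 members that were higher in every STING KO library had a positive sign in all 238 of their values (0.10 to 0.57). Because these members were chosen for groups without overlap, most alternatives, such as leaving out a library, could not turn that sign. The count of 238 is therefore no measure of robustness. Among members near 0, 18 values of 6 genes (Hk2, Pfkfb4, Gyg, Gapdh, Pgam1 and Pygb) changed sign without a call. Members called higher numbered 0 except for 1 after the GC and length correction and 14 with the covariate, which also called 1 lower. Leaving out 1 library gave 0 members in each direction. Over all genes, 0 were called higher, except for 5 after the GC and length correction, 293 with the covariate, 6 in the authors' deposited test and 0 to 2 without 1 library (2 without control replicate 2). Called lower were 32, with 18 under the replicate block, 12 without both libraries with hepatocyte transcripts, 532 with the covariate and 21 to 35 without 1 library (21 without control replicate 1). Same-numbered samples showed no shared deviation, with correlations of -0.291, -0.508 and -0.598 between their deviations from the group means. The labels do not say whether replicate numbers pair the samples, and these correlations cannot settle how the samples were prepared. The replicate block left 0 members called. Per kb of coding length in place of exon length, the difference in the Pygl share was 5.99 percentage points instead of 4.84. The tests by edgeR and DESeq2 were not run. The member share of all counts was higher in STING KO by 0.0763 to 0.117 percentage points without 1 library, against 0.0968 with all 6.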

Other observations

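A pair of genes that share transcript sequence is listed at 0 in every library. These are the row listed as Pgm2 (Pgm1 in GENCODE M21) and Itgb3bp, a centromere protein gene whose transcripts hold 12.2% of the 50-base words of that phosphoglucomutase gene. Gapdh is listed at 46.2 normalized counts per kb of exon, where Tpi1 is at 3306, Pgk1 at 1370.2 and Pgam1 at 534; 24.6% of its 50-base words occur in Gm7336.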
